A study of Rattus norvegicus with 6 samples.

Results

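Among the PIWI-interacting RNA (piRNA) probes of a rat array, 185 of 39727 were detected in pancreatic islets of pups at postnatal day 10 (P10) and in no adult islet sample. A probe counted as detected where the scanner software marked its spot as well above background, and members had to carry that mark on all 3 P10 arrays, to lack it on all 3 adult arrays, and to be free of outlier marks on all 6 arrays. All 185 probes with this detection pattern were free of outlier marks. The P10 samples were islets of pups of 10 days, with the islets of 2 pups pooled per sample, and the adult samples were islets of single rats of 3 months. No strain, sex or treatment is named in the labels. Total RNA of whole islets was measured, so fewer cells of a type and less RNA per cell cannot be told apart.

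piRNAs are small RNAs that guide PIWI proteins, a branch of the Argonaute family, and they are best known from the germline, where they silence transposable elements. They are cut from long single-stranded precursors, many of which arise from genomic clusters, so that neighbouring piRNAs can come from 1 precursor. Islets hold the insulin-secreting beta cells, which mature functionally in the weeks after birth, and the series sets immature against adult islets. The dye was ligated to RNA 3′ ends in general, so the signal of a probe comes from any labelled RNA that hybridises there. The array carried none of 28 marker genes of islet, exocrine, vascular, stromal and blood cells and none of 17 piRNA pathway genes, so the make-up of the islet samples was not measured. Each member was printed as 1 spot and is named here by its piRNA entry, which reads DQ and a number. Probe sequences and genome positions were not analysed here. Values listed for 3 arrays of an age follow the order of the array numbers.

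Between 10964 and 14598 piRNA probes were detected per array, and the dimmest detected spot of an array had a processed signal (background-subtracted spot brightness, in scanner units) between 5.46 and 6.03. That dimmest detected signal is called the detection floor below. No spot was saturated. The 3 P10 arrays and Adult 1 shared slide 1, and Adult 2 and Adult 3 shared slide 2, so age and slide overlap in part. The arrays numbered 1 lay between the ages: across the 11766 probes that were detected on every array of at least 1 age and unmarked on all 6 arrays, P10 1 correlated with Adult 1 at r = 0.940 and with P10 2 at 0.888 and P10 3 at 0.906, as a description over probes that share labelling and depth. The length of the list, the spread, the median bound and the calls are therefore also given without these arrays.

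The member list was short against its surroundings. In P10 islets 10859 probes were detected on all 3 arrays, and the 185 members made up 1.70% of them. A further 8874 probes were detected on all 6 arrays, 1002 on all 3 P10 arrays and 1 adult array, and 798 on all 3 P10 arrays and 2 adult arrays. The opposite pattern, detection on all 3 adult arrays and no P10 array, was found in 93 probes, or 0.951% of the 9781 detected on all adult arrays. Adult 1 set the length of the list: it was the single adult array with a signal in 933 of the 1002 probes, against 31 for Adult 2 and 38 for Adult 3. Without Adult 1 the same rule gave 1118 probes, without P10 1 it gave 431, without P10 2 it gave 679, and without both arrays numbered 1 it gave 1490. Each of these longer lists held all 185 members, as fewer conditions must.

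The members were dim probes in P10 islets. Their median processed signals were 10.0, 8.73 and 13.9 on the 3 arrays, whereas the probes detected on all 6 arrays had medians of 56.9, 33.9 and 49.0. Relative to the detection floor, the member medians stood at 1.68, 1.58 and 2.38 times. The brightest member spots reached 74.0, 119 and 93.1. Within the detected probes of each array, the median member lay at percentile 17.0, 16.9 and 31.0, and 129, 123 and 78 of the 185 fell in the lowest of 4 equal brightness classes. P10 3 thus showed the members most clearly and P10 1 and P10 2 near the limit of detection. On every P10 array at once, 14 members reached 2 times the floor, and 1 reached 4 times.

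In adult islets the members lay below detection but mostly not at the level of empty spots. Their median processed signals were 4.78, 2.99 and 2.94, whereas the 21158 probes detected on no array had medians of 1.29, 1.32 and 1.32. By the weaker mark of the scanner software, a signal positive and significant against background, 174 members carried signal in Adult 1, 144 in Adult 2 and 145 in Adult 3. That mark was present on all 3 adult arrays for 123 members (66.5%), on 2 for 34, on 1 for 26 and on none for 2. Of the 23787 probes with no adult detection, 11.4% carried it on all 3 adult arrays and 44.6% on none. Absence of the stronger mark therefore states that a member was not detectable at this brightness in adult islets. The name "detected only in P10" holds for the mark well above background and, for 2 of the 185, for the weaker mark as well.

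Spot brightness before background subtraction showed the same picture on a small scale. The median raw spot of the members read 30.5, 29 and 33 on the P10 arrays and 24, 25 and 24.5 on the adult arrays, over a local background between 19 and 21. Raw signal minus local background was 10, 8 and 12.5 on the P10 arrays and 4.5, 5 and 5.5 on the adult arrays. Over probes detected on no array that difference was 1, -1 and 1 in P10 islets and 1, 2.5 and 3 in adult islets. The member excess thus amounted to a few scanner units in adult islets and to about 10 in P10 islets. The brightest spot next to a member had a median signal of 90.0, 44.7 and 85.4 on the P10 arrays and 66.4, 44.6 and 42.7 on the adult arrays. Next to any piRNA spot the corresponding medians were 107, 59.4 and 88.6, and 88.0, 63.6 and 60.9.

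The 10 members with the highest mean level over the P10 arrays, on the scaled log2 measure defined further down, show how the signal was spread over samples. DQ762651 led the list, with processed signals of 17.1, 57.6 and 88.1 for the P10 arrays and of 4.53, 2.03 and 1.46 for the adult arrays. It was bright in P10 2 and P10 3 and dimmer, though above the floor, in P10 1. DQ745180 was the most even of the bright members, with 39.6, 39.9 and 39.9 on the P10 arrays and 5.54, 6.41 and 3.21 on the adult arrays. It was the member that exceeded 4 times the floor on every P10 array, and its dimmest P10 spot lay at 6.67 times the floor of its array. DQ744026 gave 40.4, 18.6 and 60.1 in P10 islets and 6.05, 2.05 and 4.28 in adult islets. The 2 ages did not overlap in DQ745180 or in DQ744026, which the rule nearly fixes.

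Several of these members owed their rank to 1 or 2 P10 arrays. DQ610452 was at 67.0 in P10 1 and 93.1 in P10 3 but at 6.78 in P10 2, and its adult signals were 6.16, 1.26 and 5.12. The P10 2 spot lay close to the adult values. DQ732015 was led by P10 1, with 74.0 there, 7.91 in P10 2 and 29.6 in P10 3, over adult signals of 3.68, 1.32 and 1.41. DQ763196 had 11.2, 68.8 and 39.6 on the P10 arrays and 3.38, 4.04 and 2.09 on the adult arrays, so that P10 1 was the dim array. DQ610855 stood out in P10 3, at 70.7, with 22.7 in P10 1 and 13.2 in P10 2, and gave 3.19, 2.63 and 1.72 in adult islets. The remaining 3 of the 10 are DQ626584, DQ626588 and DQ626589, entries close in number that are described together below.

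Beyond these, the members at 2 times the floor or more on every P10 array were DQ764851, DQ752115, DQ755557, DQ756903, DQ745338, DQ744766, DQ758275, DQ608389, DQ746813 and DQ749303, together with DQ762651, DQ745180, DQ744026 and DQ610855 from above. These 14 were singled out on their P10 signals alone, which says nothing of their distance from the threshold on the adult side. DQ752115 was as even as DQ745180 at a lower brightness, with 15.4, 15.5 and 15.8 in P10 islets and 6.16, 6.24 and 5.15 in adult islets. DQ764851 gave 15.6, 23.9 and 26.3 in P10 islets and 5.28, 3.78 and 3.29 in adult islets. DQ755557 gave 23.0, 13.7 and 31.5 against 5.23, 2.30 and 5.13. These 3 probes kept a P10 signal above their brightest adult spot on every P10 array, which the limit of 2 times the floor fixes. DQ745338 was brightest in P10 1, with 35.3, 12.7 and 19.7 on the P10 arrays and an even 3.56, 3.40 and 3.42 on the adult arrays. DQ749303 was led by P10 3, with 19.9, 11.2 and 57.2 over adult signals of 6.71, 3.91 and 4.42. DQ758275 gave 27.3, 12.2 and 28.4 in P10 islets and 5.94, 1.53 and 1.86 in adult islets. P10 2 was the dimmest of the 3 P10 arrays in each of DQ745338, DQ749303 and DQ758275. That no adult spot of the 14 reached its P10 spots was fixed by their choice, since no undetected adult spot was brighter than 8.63. All 14 carried the weaker, positive and significant mark on all 3 adult arrays.

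To set arrays on a common scale, levels were taken as log2 of the processed signal minus the array's 75th percentile over probes detected on all 6 arrays, a percentile that ran from 95.7 in P10 2 to 175 in P10 1. On this scale DQ762651 had a mean P10 level of -1.59 ± 1.53 (SD, n = 3), DQ745180 of -1.74 ± 0.44 and DQ744026 of -1.90 ± 0.60. The mean P10 level of the members ran from -4.38 to -1.59 with a median of -3.55, against a median of -1.93 for all probes detected on the 3 P10 arrays. The brightest P10 array by processed signal was P10 3 for 109 members, P10 1 for 50 and P10 2 for 26. After scaling it was P10 2 for 94 members, P10 3 for 71 and P10 1 for 20, so the order of the arrays depended on the scale. P10 1 was the lowest scaled array for 73.0% of members, whereas it was the lowest for 43.2% of all probes detected on the 3 P10 arrays. The most frequent order, P10 2 above P10 3 above P10 1, held for 81 members (43.8%) and for 26.8% of all probes detected on those arrays. A spot at the floor takes this order from the scaling alone. On P10 1, P10 2 and P10 3 the floors were 5.94, 5.52 and 5.82, and the percentiles 175, 95.7 and 140. The members lay nearer the floor than the probes they are set against, so these shares are not matched in brightness.

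The spread between P10 samples was wider for the members than for the other P10-detected probes within the members' range of mean level. Those probes were not matched to the members in brightness within that range. The median SD over the 3 P10 arrays was 0.60 in log2 units (range 0.067 to 2.44), against 0.42 for the 6027 other P10-detected probes in the same range of mean level. Over P10 2 and P10 3 alone the members' median SD was 0.35, a value given here for the members only. The ratio of the brightest to the dimmest P10 signal had a median of 2.04, was under 2 for 92 members and was at least 4 for 39. Across the 185 members, levels in P10 2 and P10 3 had a rank correlation of 0.35, P10 1 and P10 3 of 0.28, and P10 1 and P10 2 of -0.04. For the 6027 other probes in the same range the corresponding values were 0.66, 0.57 and 0.51. These are descriptions over probes of shared arrays, narrowed by the threshold that chose the members, and carry no test.

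The steadiest members were DQ746992, DQ756903, DQ613070, DQ611040 and DQ735180, with SDs between 0.067 and 0.14 over the P10 arrays. DQ756903 had processed signals of 20.9, 12.7 and 16.8 in P10 islets, in proportion to the overall brightness of these arrays, and of 6.46, 5.40 and 5.76 in adult islets. DQ746992 gave 12.8, 6.47 and 10.3 in P10 islets and 4.45, 6.04 and 3.38 in adult islets. Its P10 2 spot and its Adult 2 spot were nearly alike in brightness, so its place in the list rested on a narrow margin. DQ611040 was clearer, with 20.7, 10.99 and 18.8 in P10 islets and 5.36, 3.77 and 4.01 in adult islets. At the other end, DQ617173 had 7.22, 87.5 and 10.0 on the P10 arrays and 1.19, 1.29 and 1.26 on the adult arrays. P10 2 alone made it bright. Single-array brightness of this kind, a processed signal at least 2 times that of both other P10 arrays, was found for 22 members in P10 3, 11 in P10 1 and 6 in P10 2. The shares were 11.9%, 5.95% and 3.24%, against 4.46%, 14.5% and 0.285% of all probes detected on the P10 arrays. These signals were not scaled, so the shares also carry the brightness of each array. Its 75th percentile was 140 in P10 3, 175 in P10 1 and 95.7 in P10 2.

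Members with consecutive entry numbers had similar profiles in 2 of 3 pairs. DQ609748 had 9.02, 94.8 and 14.6 on the P10 arrays, and DQ609749 had 9.63, 119 and 11.8. Both were bright in P10 2 alone, and on the adult arrays DQ609748 gave 2.66, 1.43 and 1.47 and DQ609749 gave 4.25, 1.23 and 1.17. Between them the level differed by at most 0.32 on the log2 scale on any P10 array. DQ626588 had 8.22, 67.6 and 59.5 in P10 islets, and DQ626589 had 7.99, 67.2 and 75.3. The adult signals were 5.11, 3.13 and 1.17 for DQ626588 and 6.49, 2.89 and 1.26 for DQ626589. Their P10 levels differed by at most 0.34. The third pair, DQ608929 and DQ608930, lay closer to the detection floor, with 6.99, 5.53 and 7.23 for the first and 10.4, 6.19 and 6.99 for the second.

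The pair DQ626588 and DQ626589 belonged to a longer stretch in which 5 entries had 1 profile, and which was singled out after its values were seen. DQ626584 had 11.8, 73.8 and 73.9 on the P10 arrays and 6.45, 6.09 and 1.45 on the adult arrays. DQ626587 had 7.91, 71.5 and 49.97 on the P10 arrays and 5.89, 4.04 and 1.17 on the adult arrays, and was no member because its Adult 1 spot was marked as well above background. DQ626583 had 1.58, 24.8 and 23.3 on the P10 arrays and missed the list through P10 1. In each of these 5 entries P10 2 and P10 3 were high and P10 1 was low, closer to Adult 1 than to the other P10 arrays. DQ626580, a few entries away, was detected on all 6 arrays, with 66.8, 74.97 and 99.5 in P10 islets and 25.3, 14.9 and 14.4 in adult islets. DQ626582 and DQ626590 in the same stretch were detected on no array. DQ626581 had 8.22, 1.20 and 5.90 on the P10 arrays and was detected on 1 of them. DQ626579 had 4.82, 1.20 and 6.61 there and was detected on 1 array of each age. P10 2 was the dimmest P10 array in both, unlike in the 5 entries above. The spots of DQ626584, DQ626588 and DQ626589 were not next to each other on the array: DQ626584 lay in row 1 and column 69, DQ626588 in row 367 and column 48, and DQ626589 in row 96 and column 77.

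Adjoining entry numbers on the list were few. Of 231 probes whose entry number adjoined that of a member, 6 were members themselves (2.60%), against 0.468% of the 49098 adjoining probes of all piRNA entries. These 6 are the 3 pairs above. Detection on all 3 P10 arrays held for 32.0% of the adjoining probes of members, for 27.9% of those of all entries and for 35.4% of those of P10-detected entries. Whether adjoining entries overlap in sequence was not analysed here, and entries that overlap would read the same RNA, so neighbours are not independent observations.

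Members came from the whole range of entries and from the whole array. Entry numbers below 700000 made up 38.9% of members and 38.2% of all piRNA probes. With the entry numbers cut into blocks of equal width, each block that held any member contributed between 12 and 32 members, or between 0.365% and 0.748% of its probes. With the rows of the array cut into 4 equal bands, the bands held 48, 40, 43 and 54 members, where all piRNA probes were spread at 24.6% to 25.3% per band. By columns the bands held 41, 36, 47 and 61, so that 33.0% of members lay in the last band of columns, which held 25.4% of all piRNA probes. The share among all probes detected on the P10 arrays was 25.8% there. No test was made of these shares.

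DQ608929, DQ747937, DQ627294, DQ759827 and DQ762718 were the members nearest the threshold and had at least 1 P10 spot within 1.05 times the floor of its array. DQ747937 gave 6.63, 5.67 and 6.95 in P10 islets and 3.13, 3.36 and 4.83 in adult islets. Just outside, 778 probes were detected on 2 P10 arrays and no adult array, and the missing array was P10 2 in 494, P10 1 in 246 and P10 3 in 38. The brightest of them, DQ605430, had 45.9, 4.25 and 76.6 on the P10 arrays and 4.20, 1.27 and 1.21 on the adult arrays. DQ606700 had 6.57, 39.4 and 36.1 over adult signals of 2.49, 1.45 and 1.38, and DQ603095 had 5.71, 31.8 and 38.4 over 6.60, 3.97 and 1.24. DQ626596 and DQ619583, the next in brightness, both lacked P10 2. These 5 were brighter on their detected arrays than most members.

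Much brighter probes lay just outside on the adult side. DQ751685 had 127, 243 and 1575 on the P10 arrays, 418 in Adult 1, and 5.94 and 4.85 in Adult 2 and Adult 3. DQ602332 had 2167, 61.0 and 325 on the P10 arrays, 433 in Adult 1, and 1.45 and 1.83 on the other adult arrays. DQ614371 gave 84.2, 166 and 1250 in P10 islets and 300 in Adult 1, against 5.39 and 4.25 in Adult 2 and Adult 3. DQ747486 and DQ610625 were of the same kind, with Adult 1 at 128 and 72.8. In all 5, Adult 1 was as bright as or brighter than the dimmest P10 array, and Adult 2 and Adult 3 lay near or below the floor. Requiring all 3 adult arrays to be dark thus left out probes that were, on at least 1 P10 array, far brighter than any member. Adult 1 differed from those arrays in slide as well as in sample. The part of the slide in this was not tested.

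Because the adult side is below detection, only a bound on the difference in brightness can be given. For each member the mean P10 level was set against the adult mean with every adult spot raised to the higher of its own level and the array's floor. By this measure P10 islets were at least 6.68-fold above adult islets for DQ762651, 5.86-fold for DQ745180, 5.71-fold for DQ626584, 5.19-fold for DQ744026 and 5.05-fold for DQ610452. DQ626589, DQ626588, DQ763196, DQ610855 and DQ732015 followed, between 4.89-fold and 3.91-fold. The median over the members was 1.71-fold, 65 reached 2-fold and 9 reached 4-fold. For DQ608929, DQ747937 and DQ627294 no fold is given, since the P10 mean did not exceed the raised adult mean. The bounds refer to the background-subtracted signal and did not hold under other handling of the background. With normexp correction and an offset of 50, the highest bound of any member was 1.22-fold, with an offset of 1 it was 2.43-fold, and on uncorrected spots it was 2.65-fold. The highest bound also moved with the arrays used, to 12.3-fold without P10 1, 9.86-fold without P10 2 and 11.3-fold without both arrays numbered 1. In the last case the median was 1.73-fold and 69 members reached 2-fold. The 93 probes detected only in adult islets had a median bound of 1.90-fold and a highest of 3.75-fold, in the opposite direction.

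The values of the 2 ages did not overlap for most members, which the rule nearly fixes. By processed signal all 3 P10 spots exceeded all 3 adult spots in 183 of the 185, against 16.3% of the same 11766 probes. On the scaled levels this held for 143, against 14.7%. In 42 members a scaled adult level reached the lowest P10 level. The adult array concerned was Adult 2 in 19, Adult 3 in 19 and Adult 1 in 4. Through the scaling, an undetected spot of Adult 2 or Adult 3 can lie above a detected spot of P10 1. The scaling percentiles were 108 in Adult 2 and 101 in Adult 3, against 139 in Adult 1 and 175 in P10 1. In the deposited value table, which the authors normalized between arrays, 152 members had all P10 values above all adult values, against 10.1% of all probes in that table. In that table the median member was at 2.86, 3.43 and 3.48 on the P10 arrays (log2). On the adult arrays 99, 148 and 163 members lay within 0.01 of the lowest value of the column in Adult 1, Adult 2 and Adult 3.

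A fit over the piRNA probes detected on every array of at least 1 age places the members among the other differences between the ages. It used limma with Benjamini-Hochberg adjustment over 11900 probes and called 51 of the 185 lower in adult islets, against 1.74% of all tested probes. At an unadjusted p below 0.05, 146 members were lower in adult, against 14.2% of all tested probes (limma). The members were chosen on this contrast, so neither count tests anything about them. The median member difference, adult minus P10, was -1.61 on the log2 scale, against -0.04 over all tested probes. All 185 values were below 0, a sign that the rule nearly fixes for the background-subtracted signal. Under other handling of the background fewer were below 0, as given in the last section. The difference takes adult signals below detection as measured, so its size is not to be read in place of the bounds. The calls, unlike the median difference over the members, depended on single arrays. Without P10 3, Adult 2 or Adult 3 limma called no tested probe at all, and so none of the 185. In these settings 119, 133 and 130 members were lower at an unadjusted p below 0.05 (limma). The shares of all tested probes were 8.75%, 8.20% and 8.23%. The median member differences were -1.49, -1.62 and -1.61. The number of members called was 10 without P10 2, among 124 lower calls in all, and 110 without P10 1, among 968. It was 73 without Adult 1, among 1184, and 125 without both arrays numbered 1, among 2399. With the slide as a block, the age difference rested on Adult 1 against the P10 arrays, since slide 2 held adult arrays only. The median member difference was then -1.49. Age and slide cannot be separated further with these arrays.

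The authors' deposited table of changed piRNAs listed 52 of the 185, all as lower in adult islets, against 3.96% of the probes in their value table. These 52 are 28.1% of the members and 7.07% of the 735 probes that the authors' deposited table lists as lower in adult. Among the members, the fold in the authors' deposited table ran from 2.00 to 8.03 with a median of 2.63. It was largest for DQ762651, at 8.03, followed by DQ744026 at 6.06, DQ745180 at 5.72, DQ610855 at 4.97 and DQ732015 at 4.62. The table was made from the same arrays with unadjusted p-values. Of the 51 members called by limma here, 35 were among the 52. DQ626584, DQ626588 and DQ626589, with P10 1 near the adult values, were not listed there.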

How the data were processed

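Total RNA of rat islets carried a ligated Cy3 dye and was read on 1-colour Agilent arrays, 1 sample per array, per the labels' protocols. The authors deposited spot intensity values from Agilent Feature Extraction 11.0.1.1, background-subtracted and not normalized between arrays, per the file headers. The deposited value table holds log2 values normalized by the authors by a method not given in the sources used here. The p-value in the authors' deposited table is that of an unpaired t-test without adjustment, beside a fold given as an unsigned ratio, per the file headers. Its limits were a p of 0.05 and a fold of 2. The marks of 0 or 1 per spot are the scanner software's.

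Groups and replicate numbers came from the sample titles, and slides from the scan identifiers. Members, gene lists and tests were chosen with earlier results of these data known. A level is the log2 processed signal less the array's 75th percentile over piRNA probes detected on all 6 arrays. The two-sided test was limma 3.58.1 (R 4.3.3), over piRNA probes detected on every array of either age, with marked spots left out. The fit was tested on simulated data. Pandas 2.3.3 computed the descriptions. The normexp setting used the median spot signal, since the files used here hold no mean signal. Named members are the 10 with the highest P10 level, the 10 with the largest bound, the 5 steadiest and 5 least steady, the 5 nearest the threshold, runs of 3 or more consecutive entries (none occurred), and the 5 with the largest fold in the authors' deposited table, with 5 probes just outside on either side. Pairs of consecutive entries and the members at 2 times the floor were added after values were seen. With 3 arrays per age, the number of arrays limits the precision, and nothing is known of depth beyond signal over background. Probe sequences were not analysed here.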

Additional observations from a re-analysis of the deposited data

How the results depend on the processing

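Settings chosen after seeing the data are normexp with an offset of 1, the uncorrected median signal, and leaving out both arrays numbered 1. The cause of each move was not tested unless stated. The list of 185 probes shrank to 14 at 2 times the floor, grew to 312 with slide 1 alone and to 1490 without both arrays numbered 1, and ran from 216 to 1118 with 1 array left out. With the weaker mark in place of well above background it held 217 probes, but 2 of the 185 were among them. The share of entry numbers below 700000 was 14.3% at 2 times the floor and 39.4% to 47.1% with 1 array left out. The share in the first 2 of 4 row bands was 47.6%, and it was 59.4% with the weaker mark and 35.7% at 2 times the floor.

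The 51 members called by limma became 0 with no scaling, normexp at either offset, the deposited value table, all piRNA probes tested and the replicate block. They became 1 on uncorrected spots. Members lower at an unadjusted p below 0.05 (limma) numbered 164, 0, 0, 117, 148, 147 and 17 in those settings, in that order. The shares of all tested probes were 15.5%, 4.60%, 2.70%, 9.57%, 6.82%, 14.1% and 9.42%. For the slide as a block only the median difference is given, further up, since that fit set Adult 1 alone against the P10 arrays. On uncorrected spots the share of members was 9.19%, near that of all tested probes. Array weights gave 138 called members, leaving out both arrays numbered 1 gave 125, and leaving out 1 array gave 0 to 110. The methods' t-test on the deposited value table gave 52 at their limits and 0 after Benjamini-Hochberg adjustment, when 91 had an unadjusted p of at most 0.05. The replicate numbers did not pair the samples: same-numbered arrays had correlations of deviations of -0.04, 0.24 and -0.23. Over all tested probes the main fit called 207 lower and 496 higher in adult. These counts became 276 and 683 with scaling over all piRNA probes, 2405 and 1853 with array weights, 49 and 17 with normexp at an offset of 50, and 2399 and 1531 without both arrays numbered 1. They were 0 and 1 with the slide as a block. They were 0 and 0 with no scaling, normexp at an offset of 1, the deposited value table, all piRNA probes and the replicate block, where 2840, 835, 3719, 5137 and 3175 probes had an unadjusted p below 0.05 (limma). With 1 array left out, the lower calls ran from 0 to 1184 and the higher calls from 0 to 1043.

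The median member difference of -1.61 turned to 0.31 with normexp at an offset of 50, where the median of all tested probes was also 0.31, and was -0.0094 at an offset of 1, -0.24 on uncorrected spots and -0.97 in the deposited value table. It ran from -1.85 to -1.49 with 1 array left out. An offset of 50 exceeds the median member signal on every array. Its part in these moves was not tested. Under it DQ610855, DQ611040 and DQ756903, called in the main fit, became 0.028, 0.21 and 0.24. Of the 185, 12 stayed below 0, all in the 24 named. The median bound of 1.71-fold turned to 0.804 with normexp at an offset of 50 and 0.985 at an offset of 1, and ran from 1.51 to 1.96 with 1 array left out. The median SD over P10 arrays, 0.60, was 0.37 with normexp at an offset of 50, 0.38 on uncorrected spots, 0.35 without both arrays numbered 1 and 0.35 to 0.60 with 1 array left out.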
